A study of Mus musculus with 6 samples.

Results

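The 10 genes described here belong to the pathway of leukaemia inhibitory factor (LIF), as ligand, receptors, kinases, phosphatase, transcription factor or targets: *Lif*, *Lifr*, *Il6st*, *Jak1*, *Jak2*, *Stat3*, *Socs3*, *Pim1*, *Gbx2* and *Ptpn11*. They were chosen by their place in the pathway, with earlier results of these data known. Their H3K56ac peaks were all peaks with at least 1 base in the gene body or within 30 kb on either side, which gave 18 of the 11106 peaks of the series. H3K56ac is histone H3 acetylated at lysine 56. It was mapped by ChIP-seq in the mouse embryonic stem cell (mESC) line V6.5, grown on feeder cells in serum medium with LIF at 1000 units per ml. One group was infected with lentivirus for a scrambled shRNA (Scramble) and the other with lentivirus for an shRNA against *Sirt6* (*Sirt6* KD), a gene for an H3K56ac deacetylase. Each group had 2 H3K56ac libraries and 1 input library, 6 in all. The processed file holds 1 set of peak positions on mm10, merged over libraries, with no read depth and no value per library. The study asked what loss of *Sirt6* does to H3K56ac, but a comparison of Scramble with *Sirt6* KD cannot be made from merged positions. The text therefore describes where peaks lay and how wide they were, set beside all 21938 protein-coding genes or all peaks. There are no replicates of a merged peak, genes are not replicates of each other, and no test was run.

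As background, LIF joins its receptor LIFR to the shared receptor chain IL6ST, and JAK kinases bound to these chains then phosphorylate STAT3. Phosphorylated STAT3 dimers enter the nucleus and bind the palindrome TTCNNNGAA at their target genes. In mESCs this pathway sustains self-renewal, which is why LIF is a standard component of the medium. SOCS3 is a feedback inhibitor made in response to STAT3, PIM1 is a kinase that promotes survival, and GBX2 is a homeobox factor that can support the undifferentiated state. SHP2, the phosphatase encoded by *Ptpn11*, binds the activated receptor chain and passes the signal on to the MAPK branch.

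The sequences below show some of the STAT palindromes in the peaks of *Socs3* and *Lifr*, and the octamers in those of *Lifr* and *Pim1*. The first 3 were chosen because they hold the 3 matches in member peaks to the stricter form TTCCNGGAA, and the last 2 because their octamers lie near the peak midpoint. All are GRCm38.p6, the assembly behind mm10, written 5′ to 3′ on the strand of the gene. Capitals mark TTCNNNGAA in the first 3 sequences and the octamer, ATTTGCAT or its reverse complement, in the last 2. The octamer is a binding motif of POU factors such as POU5F1 (OCT4).
*Socs3* promoter stretch inside the 4043 bp peak, chr11:117969230-117969529 (minus strand): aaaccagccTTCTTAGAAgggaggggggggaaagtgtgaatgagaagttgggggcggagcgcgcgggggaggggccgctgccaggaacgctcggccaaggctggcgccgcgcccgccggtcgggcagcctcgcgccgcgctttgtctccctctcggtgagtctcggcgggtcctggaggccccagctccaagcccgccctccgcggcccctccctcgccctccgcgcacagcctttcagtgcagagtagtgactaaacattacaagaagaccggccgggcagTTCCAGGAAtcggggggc
*Lifr* intronic peak, pair of STAT palindromes, chr15:7115497-7115564 (plus strand): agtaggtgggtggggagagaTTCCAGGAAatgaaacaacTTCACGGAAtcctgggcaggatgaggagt
*Socs3* peak downstream of the gene, STAT palindrome, chr11:117962603-117962651 (minus strand): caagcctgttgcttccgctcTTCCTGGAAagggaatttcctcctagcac
*Lifr* intronic peak, pair of octamers, chr15:7115842-7115927 (plus strand): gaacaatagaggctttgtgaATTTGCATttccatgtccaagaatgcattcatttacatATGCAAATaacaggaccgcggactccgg
*Pim1* promoter, 300 bases around the peak midpoint, chr17:29490413-29490712 (plus strand): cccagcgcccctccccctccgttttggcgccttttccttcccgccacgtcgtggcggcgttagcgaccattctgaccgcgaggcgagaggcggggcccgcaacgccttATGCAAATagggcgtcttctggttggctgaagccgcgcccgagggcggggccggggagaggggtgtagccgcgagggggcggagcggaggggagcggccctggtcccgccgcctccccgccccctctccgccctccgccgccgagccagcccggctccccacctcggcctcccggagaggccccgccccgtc

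Of the 10 members, 9 had a peak in their window, against a background of 56.8% of protein-coding genes, and *Jak1* had none. A promoter peak, defined by a midpoint within 1 kb of any annotated transcription start site (TSS), was present at 8 members, against 33.9% of genes. When any base of a peak could count, the number was 9 members, against 35.7%. *Socs3* accounted for the difference, since its peak was so wide that the midpoint lay 1162 bp from the nearest TSS. At principal TSS alone, those of transcripts that GENCODE tags as principal, a midpoint lay within 1 kb at 6 members against 31.2% of genes, and any peak base at 7 members against 34%. *Lif* and *Gbx2* left the count there, because their peaks sat at starts of other transcripts.

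**Figure D1:**
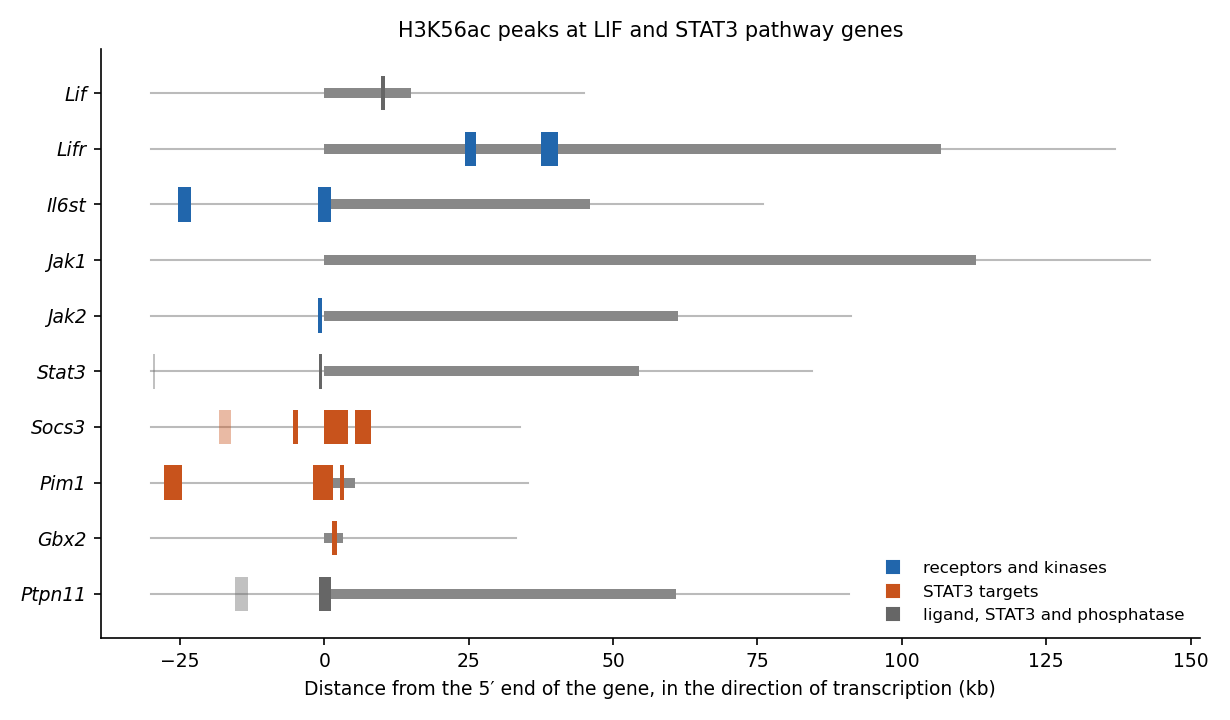
Position of H3K56ac peaks at the 10 genes. The x axis gives the distance from the 5′ end of the gene in kb, grey bars are gene bodies, thin lines the 30 kb flanks, and coloured blocks the peaks (pale where the nearest TSS belongs to another gene). *Jak1* has no block, and *Socs3* has 4, of which 1 covers 99.9% of its gene body.

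The ligand gene *Lif* (chr11:4257557-4272514, plus strand) held 1 peak of 711 bp at chr11:4267347-4268057. The midpoint was intronic, 10145 bp downstream of the 5′ end and 607 bp from the start of *Lif-201*, a shorter coding transcript. The TSS of the principal transcript *Lif-202* was 9790 bp from the nearest peak base, so the upstream promoter carried no peak. The CpG ratio there (observed over expected CpG in 1 kb) was 0.181, and the 300 bases of its RefSeq promoter held 7 CpG, equal to the median of all 32851 RefSeq promoters (quartiles 3 and 20). Feeder cells are known to make LIF themselves. In these peaks, 9 of 10 fibroblast markers (*Col1a1*, *Col1a2*, *Col3a1*, *Col6a1*, *Thy1*, *Twist1*, *Prrx1*, *Pdgfrb*, *Postn*) had no peak in their window, against 43.2% of all genes. *Fn1* had 3. The part of feeder cells in the *Lif* peak was not tested. All 10 mESC markers had a peak that touched 1 kb around a TSS, against 35.7% of all genes. By midpoint, 4 of the 10 had a promoter peak, against 33.9%. Of 4 haematopoietic markers, 1 had a window peak, against 56.8% of all genes.

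The receptor genes had 2 peaks each, 1 of them at a promoter and 1 distal, meaning more than 3 kb from every protein-coding TSS. At *Lifr* (chr15:7090614-7197489, plus strand) the promoter peak measured 2841 bp (chr15:7128181-7131021). It covered the start of the principal transcript *Lifr-201*, with its midpoint 42 bp from it, and lay 38987 bp inside the annotated 5′ end of the gene. No peak lay at that outermost start, where the CpG ratio was 0.233, against up to 0.982 at principal TSS. The second *Lifr* peak (chr15:7114974-7116809, 1836 bp) was intronic and 13668 bp from the nearest TSS. It was wider than 87.0% of the 3382 distal peaks, and its GC content of 42.9% was higher than that of only 6.61% of all peaks. The median GC content was 51.4% over all peaks and lower, 48.4%, over distal peaks.

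At *Il6st* (chr13:112464070-112510086, plus strand), the shared signalling chain, the promoter peak measured 2206 bp (chr13:112463072-112465277) and covered the 5′ end. The distal *Il6st* peak was intergenic, 24190 bp upstream (chr13:112438671-112441089), and its 2419 bp exceeded 92.1% of distal peaks. Both receptor genes thus paired a CpG-rich promoter peak (CpG ratios 0.791 and 0.798) with a CpG-poor distal one (0.157 and 0.357). The medians were 0.607 for all promoter peaks and 0.261 for all distal peaks.

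The kinases stood lower. *Jak2* (chr19:29251828-29313080, plus strand) had a single narrow peak of 578 bp (chr19:29250793-29251370), which ended 458 bp short of the 5′ end and touched no base of the gene. It was wider than 16.2% of promoter peaks. *Jak1* (chr4:101152367-101265282, minus strand), which encodes a kinase that associates with IL6ST, had no peak in a window of 172916 bp. The nearest peak, of 3037 bp, lay 89.5 kb upstream of its 5′ end and nearest to *Ak4*, and the next in the other direction was 1007659 bp from the gene. The peak-free stretch spanned 1210 kb and held 5 protein-coding genes. Of 11085 gaps between neighbouring peaks, 478 (4.31%) were at least as long, and the median gap was 49.0 kb. An empty window was common, at 43.2% of all genes and 49.7% of the 2114 genes with a window as long as that of *Jak1* or longer. The *Jak1* promoter was nevertheless CpG-rich, with a CpG ratio of 0.789 at the 5′ end, and of the 4825 genes with a ratio at least as high, 62.8% had a promoter peak. The window contained 0 unsequenced bases, and the share of repeats in it was 23.9%. The RefSeq promoters of *Jak1* and *Lif* are printed with every CpG in capitals, since neither carried a peak: *Jak1* has 29 CpG and *Lif* has 7.
*Jak1* promoter, chr4:101265174-101265473 (minus strand): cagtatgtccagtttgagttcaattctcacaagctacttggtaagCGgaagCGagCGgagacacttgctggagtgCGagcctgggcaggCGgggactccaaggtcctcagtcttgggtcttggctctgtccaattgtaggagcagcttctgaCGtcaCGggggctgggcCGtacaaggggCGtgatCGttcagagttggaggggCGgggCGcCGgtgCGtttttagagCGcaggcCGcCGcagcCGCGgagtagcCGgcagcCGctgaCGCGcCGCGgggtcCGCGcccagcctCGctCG
*Lif* promoter, chr11:4257318-4257617 (plus strand): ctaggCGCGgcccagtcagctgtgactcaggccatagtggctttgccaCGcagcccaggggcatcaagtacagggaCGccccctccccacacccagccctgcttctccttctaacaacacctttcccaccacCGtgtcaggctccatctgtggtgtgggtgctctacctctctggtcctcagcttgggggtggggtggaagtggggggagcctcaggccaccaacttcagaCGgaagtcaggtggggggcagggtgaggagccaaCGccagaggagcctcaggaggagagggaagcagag

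*Stat3* itself (chr11:100885098-100939540, minus strand) had a peak of 521 bp (chr11:100939909-100940429) that ended 369 bp upstream of the principal TSS. It was wider than 12.4% of promoter peaks, and was the narrowest promoter peak among the members. A further 437 bp peak, 29435 bp upstream, fell just inside the 30 kb limit, but the nearest TSS was that of *Cavin1*, a caveolar coat gene, at 1576 bp. *Ptpn11* (chr5:121130533-121191397, minus strand) had a promoter peak of 2085 bp (chr5:121190208-121192292) that covered its 5′ end. Its other window peak, of 2285 bp, lay 260 bp from the start of *Rpl6*, a ribosomal protein gene.

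Among the STAT3 targets, *Socs3* (chr11:117966079-117970047, minus strand) held the most peaks of any member, 4. The widest member peak of all, 4043 bp (chr11:117966003-117970045), covered 99.9% of the *Socs3* gene body, a level reached by 62 protein-coding genes (0.283%). That share was not matched for gene length, and the gene, of 3969 bp, is shorter than the peak. A second *Socs3* peak of 2826 bp (chr11:117961973-117964798) lay beyond the 3′ end, with its midpoint 5801 bp from the nearest TSS, and was wider than 94.2% of distal peaks. Another of 903 bp (chr11:117974574-117975476) lay 4978 bp upstream. The fourth, of 2033 bp, was 361 bp from the start of *Pgs1*, an enzyme gene of phospholipid synthesis. When peaks at most 12.5 kb apart were joined, these 4 peaks formed 1 cluster with a summed width of 9805 bp. It ranked 71 of 8554 clusters with the peak at *Pgs1* included, and no rank without that peak is given.

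*Pim1* (chr17:29490753-29496112, plus strand) had 3 peaks. The promoter peak measured 3356 bp (chr17:29488886-29492241) with its midpoint 190 bp upstream of the 5′ end, and was wider than 95.4% of promoter peaks. A 738 bp peak followed in the gene body, 425 bp from the start of a shorter transcript. The distal *Pim1* peak of 3131 bp (chr17:29463001-29466131) lay 26187 bp upstream in intergenic sequence and exceeded 95.4% of distal peaks in width. *Gbx2* (chr1:89927956-89931179, minus strand) differed from the other targets. Its only peak, of 929 bp (chr1:89928928-89929856), was intronic and sat 207 bp from the start of a retained-intron transcript. The principal *Gbx2* TSS was 1323 bp from the nearest peak base, although its CpG ratio was 0.882. A peak of at least 3 kb in the window, which 7.88% of genes had, was present at 2 members, *Socs3* and *Pim1*.

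Receptors and kinases were then set against STAT3 targets by the share of each window that peaks covered. Among receptors and kinases it was 2.80% at *Lifr*, 4.36% at *Il6st*, 0% at *Jak1* and 0.477% at *Jak2*, with a median of 1.64%. Among targets it was 15.3% at *Socs3*, 11.1% at *Pim1* and 1.47% at *Gbx2*, with a median of 11.1%. The groups overlapped, because *Gbx2* lay below both receptors, and the difference of medians, 9.41 percentage points, came from *Socs3* and *Pim1*. With flanks of 10 kb they did not overlap, since *Gbx2* was at 4.0%, *Lifr* at 3.69% and *Il6st* at 3.34%. Nor did they in gene bodies alone, where these were at 28.8%, 4.38% and 2.63%. Gene length enters these shares, as the *Gbx2* gene is 3224 bp long and *Lifr* 106876 bp. In windows of equal size, given below, *Gbx2* again lay below both receptors. With flanks of 30 kb, *Lif* at 0.949%, *Stat3* at 0.837% and *Ptpn11* at 3.62% fell within the range of the receptors and kinases. The median over all protein-coding genes was 0.594%, and over genes where a peak touched 1 kb around a TSS it was 2.92%. *Socs3* exceeded 99.1% and *Pim1* 97.4% of all genes, and 97.7% and 94.0% of the genes with such a peak. *Il6st* and *Lifr* exceeded 84.3% and 74.7% of all genes, and *Jak2* 48.2%. Among the genes with such a peak, *Il6st* exceeded 66.6%, *Lifr* 48.2%, *Gbx2* 26.4% and *Jak2* 5.32%.

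Gene length differed between these groups, with a median of 3969 bp for targets and 84064.5 bp for receptors and kinases, so the windows were not alike. In windows of equal size, 30 kb on either side of the 5′ end, the difference of medians was 10.0 percentage points. *Socs3* then stood at 16.3%, *Pim1* at 12.0%, *Il6st* at 7.71%, *Lifr* at 3.06%, *Gbx2* at 1.55%, *Jak2* at 0.963% and *Jak1* at 0%. Among genes of 0.5 to 2 times its own length, *Socs3* exceeded 98.4%, *Pim1* 95.4%, *Il6st* 89.0%, *Lifr* 88.8%, *Gbx2* 61.9%, *Jak2* 42.2% and *Jak1* 0%. Without the peak at *Pgs1*, the share at *Socs3* was 12.1%. Without those at *Cavin1* and *Rpl6*, the shares were 0.455% at *Stat3* and 1.73% at *Ptpn11*.

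**Figure D2:**
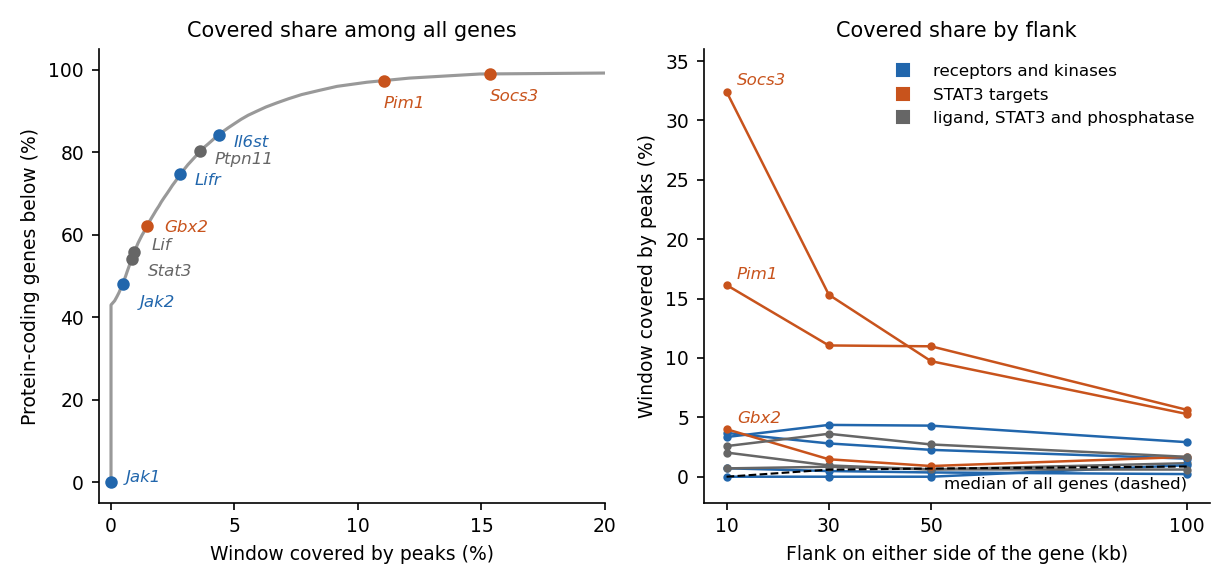
Left, the percent of each gene window covered by peaks (x axis) against the percent of protein-coding genes below that value (y axis). The grey line is all 21938 genes and points are members. Right, the covered percent of each member with flanks of 10, 30, 50 and 100 kb, with the median of all genes dashed. *Socs3* and *Pim1* lie above the other members at every flank, and *Gbx2* does not.

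The width of a peak is all that the file measures of it, and the members' distal peaks were wide. Of the 18 member peaks, 11 were centred within 1 kb of a TSS, 5 were distal and 2 lay between. The share of distal peaks, 27.8%, was near the 30.5% of the whole set. The 5 distal member peaks measured 903, 1836, 2419, 2826 and 3131 bp, and 4 of them exceeded the 75th percentile of all distal peaks, 1075.5 bp. All 5 had a member as the gene of the nearest TSS. Over all member peaks the median width was 2059 bp (range 437 to 4043 bp), against 913.5 bp over all peaks, and 12 of 18 were wider than that median. At the 6 members with a midpoint near a principal TSS, peaks were of 2 kinds. Those of *Lifr*, *Il6st*, *Ptpn11* and *Pim1* covered the start site and were 2085 to 3356 bp wide, while those of *Jak2* and *Stat3* lay upstream of it and measured 578 and 521 bp.

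**Figure D3:**
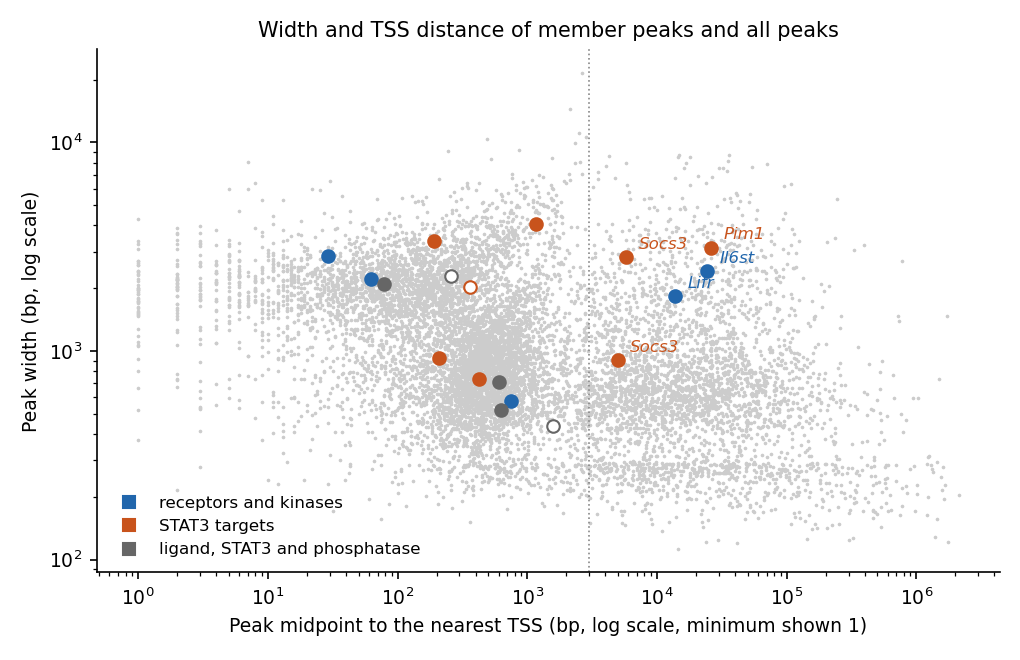
Peak width (y axis, bp, log scale) against the distance from peak midpoint to the nearest protein-coding TSS (x axis, bp, log scale). Grey dots are all 11106 peaks, coloured points the 18 member peaks (open where the nearest TSS belongs to another gene), and the dotted line marks 3 kb. The 5 labelled distal member peaks measure 903 to 3131 bp, above the median of 639.5 bp of all distal peaks.

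The DNA under the member peaks was searched on both strands for TTCNNNGAA, for its stricter form TTCCNGGAA, for the octamer ATTTGCAT and for TCAAGGTCA, a motif of ESRRB. The strict form is contained in the first, and no other matches overlapped in the member peaks. A match is a description of letters and not a site. In the central 400 bp, TTCNNNGAA occurred in 2 of 18 member peaks (11.1%) against 11.5% of all peaks, so the member peaks were at the background. These were the *Jak2* peak and the *Socs3* peak downstream of the gene. TTCCNGGAA occurred in 0 of 18 centres against 1.64%, the octamer in 2 against 1.5%, and TCAAGGTCA in 0 against 1.01%.

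Over whole peaks, 7 of the 18 contained 12 matches to TTCNNNGAA, or 0.354 per kb against 0.310 per kb over all peaks. The *Socs3* window held 6 of these matches, 1 of them in the peak at *Pgs1*, and *Lifr* 3, while *Il6st*, *Jak2* and *Pim1* held 1 each. In the distal member peaks there were 8 matches, 0.720 per kb against 0.343 per kb in all distal peaks. They came from 4 peaks, and 6 of them from the *Lifr* and *Socs3* peaks. The first sequence printed above shows 2 matches upstream of the principal *Socs3* TSS. TTCCAGGAA began 61 bp upstream of it, and TTCTTAGAA began 69 bp upstream of the start of a noncoding *Socs3* transcript. This second match was also the only one in the RefSeq promoters of the members, 12 sequences for 10 genes, of which 1 contained TTCNNNGAA. Of all RefSeq promoters 8.30% contained it.

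The intronic *Lifr* peak carried the densest group of motifs. TTCCAGGAA and TTCACGGAA began 374 and 355 bp before the midpoint, a further palindrome, TTCAAAGAA, 207 bp before it, and the octamers 29 bp before and 9 bp after it. Of all peaks, 15 (0.135%) held at least 2 matches to TTCNNNGAA and at least 2 octamers. These limits follow the counts of this *Lifr* peak, so it is among the 15 by construction. Whole peaks were searched without matching for width, and wider peaks have more room for matches. The *Lifr* peak measured 1836 bp, against a median of 913.5 bp over all peaks. The *Pim1* promoter peak held an octamer 42 bp before its midpoint and 232 bp upstream of the 5′ end, and the *Il6st* promoter peak held 1 at 785 bp upstream. The single matches of *Il6st*, *Jak2* and *Pim1* to TTCNNNGAA are printed next with 20 bases on either side, in capitals, followed by the only match to the ESRRB motif, in the distal *Pim1* peak, where the reverse complement is read.
*Il6st* distal peak, STAT palindrome, chr13:112439513-112439561 (plus strand): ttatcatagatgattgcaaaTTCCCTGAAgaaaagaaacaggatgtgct
*Jak2* promoter peak, STAT palindrome, chr19:29251119-29251167 (plus strand): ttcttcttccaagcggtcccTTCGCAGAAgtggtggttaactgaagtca
*Pim1* distal peak, STAT palindrome, chr17:29465903-29465951 (plus strand): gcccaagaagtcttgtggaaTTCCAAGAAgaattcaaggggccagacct
*Pim1* distal peak, ESRRB motif, chr17:29463366-29463414 (plus strand): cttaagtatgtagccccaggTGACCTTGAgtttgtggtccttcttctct

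**Figure D4:**
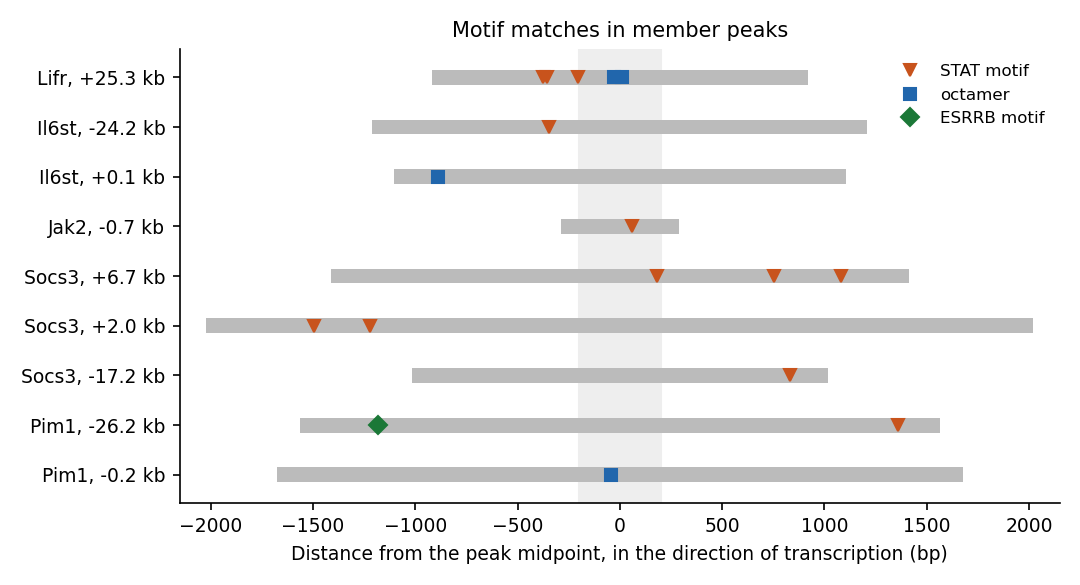
Motif matches in the 9 member peaks that held any. Grey bars are peaks, centred on their midpoint and labelled by gene and distance of the midpoint from the 5′ end, the x axis is in bp in the direction of transcription, and shading marks the central 400 bp. Most STAT palindromes fall outside the centre, and the octamers of the *Lifr* and *Pim1* peaks fall inside it.

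The other genes of the pathway, 55 in all, were grouped by role. This list was chosen with earlier results of these data known. Of these, 23 had a promoter peak by midpoint (41.8%, near the 33.9% of all genes). By any base of a peak the number was 26, against 35.7% of all genes, and 45 had a peak in their window, against 56.8%. By role, promoter peaks were found at 1 of 7 ligands, 0 of 4 receptors, 1 of 2 kinases, 3 of 6 STAT genes, 7 of 14 inhibitors, 3 of 8 adaptors and 8 of 14 STAT3-responsive genes. By any base, the count of STAT3-responsive genes was 11. The median covered share was 5.30% for STAT3-responsive genes, 4.30% for the 2 kinases, 2.80% for ligands and 2.41% for inhibitors. For adaptors it was 1.72%, for receptors 1.07% and for STAT genes 0.623%. These shares were not matched for gene length, and they count every window peak, whichever gene has the nearest TSS. Values ran from 0% to 30.3% among STAT3-responsive genes. The kinases *Jak3* and *Tyk2*, named after their values were seen, stood at 4.05% and 4.55%, above *Jak1* and *Jak2*. None of the 4 peaks in the *Jak3* window touched 1 kb around a *Jak3* TSS, whereas *Jak2* had a promoter peak.

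Peaks of at least 3 kb touching 1 kb around a TSS occurred at 8 of the 55 genes, against 3.35% of all genes, and 6 of the 8 were STAT3-responsive genes. Because earlier results were known when the list was made, these counts only describe the listed genes. *Mcl1*, a survival factor of the BCL2 family, had the widest at 7982 bp and 30.3% of its window covered. *Ccnd1*, which encodes cyclin D1, had a peak of 5674 bp, and the reprogramming factor *Klf4* one of 5078 bp. The pluripotency factor *Tfcp2l1* had 4641 bp, *Pim3*, a kinase gene related to *Pim1*, 3647 bp, and the kinase gene *Sgk1* 3543 bp. The other 2 were *Shc1*, an adaptor gene, with 5896 bp and *Socs2*, an inhibitor gene related to *Socs3*, with 3520 bp.

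**Figure D5:**
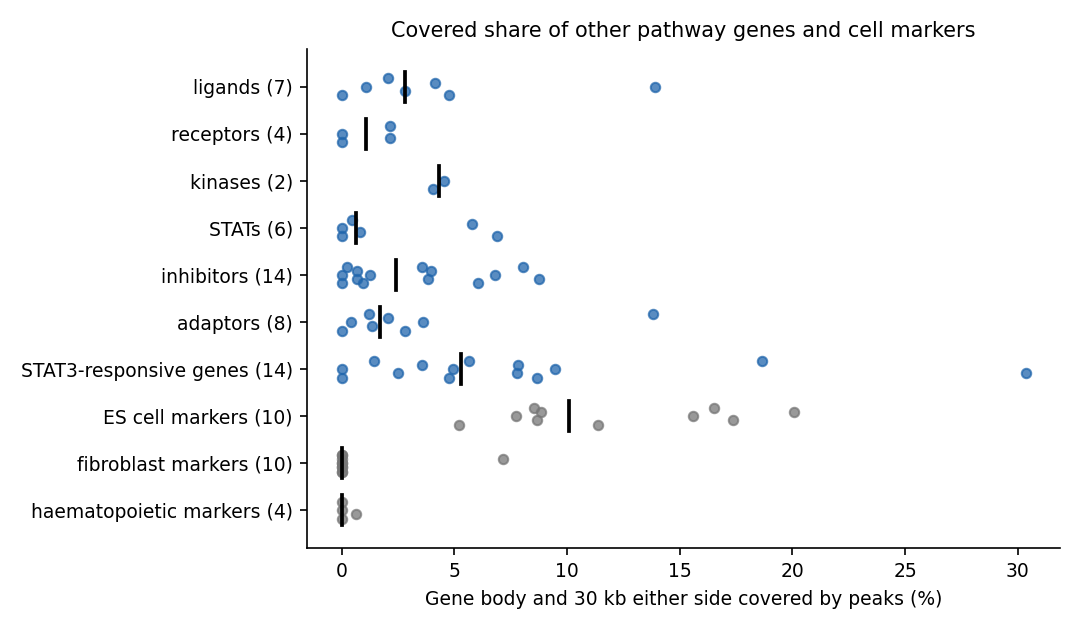
Percent of the gene body and 30 kb on either side covered by peaks (x axis) for the other pathway genes by role and for cell type markers, 1 point per gene, with the number of genes in parentheses and a black bar at the median. STAT3-responsive genes reach 30.3%, mESC markers range from 5.21% to 20.1%, and 9 of 10 fibroblast markers lie at 0%. *Tfcp2l1* is in both the STAT3-responsive and the mESC marker list, at 8.68% in each. Of all genes, 43.2% have no peak in their window.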

How the data were processed

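H3K56ac ChIP-seq and input libraries of V6.5 mESCs were grouped by their titles. Per the labels and the methods of the study, the authors trimmed single-end reads, aligned them to mm10 with Bowtie so that only reads with 1 reportable location were kept, removed duplicates and called peaks with MACS2. Blacklisted regions were dropped before overlapping peaks were merged. The deposited file gives where each merged peak starts and ends, while 3 further columns were constant. Merging hides the library a peak came from and its strength, and a wide peak can be the union of narrower ones. By the authors' own counts, each *Sirt6* KD library had more peaks enriched over input than either Scramble library. Part of the merged peaks and of their widths may therefore come from *Sirt6* KD cells alone, and this was not tested. Neighbouring peaks were never closer than 1000 bp. Read depth and its precision are not given by the file.

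Peaks were overlapped with GENCODE M21 genes, and sequences were read from GRCm38.p6 or RefSeq promoters. All 10 members are named, with the gene of a nearer TSS and other pathway genes with a peak of at least 3 kb at a TSS. Members and lists were chosen with earlier results of these data known. Interval functions (2000 of 2000 right) and motif search (300 of 300 planted motifs found) were tested on simulated data. Alternatives varied the distance, flank, width, group and motif settings. Calculations used Python 3.11.15 with numpy 2.4.6.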

Additional observations from a re-analysis of the deposited data

How the results depend on the processing

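Promoter peaks were counted at 8 members, and at 5 with midpoints within 500 bp or with only the 5′ end of each gene. The other 4 settings, of which the principal TSS were chosen after seeing the data, gave 6 to 9. Window peaks numbered 18, but 9 in gene bodies alone and 30 with flanks of 100 kb, and 13 to 23 under the other 5 settings. The covered share of targets exceeded that of receptors and kinases by 9.41 percentage points. It did so by 40.2 in gene bodies alone and 4.04 with flanks of 100 kb, kept its sign under all 9 settings, and fell to 4.62 with *Stat3* among the targets. A STAT palindrome lay in the central 400 bp of 2 member peaks, in 1 within 200 bp, in 5 within 1000 bp (25.7% of all peaks) and in 0 with TTCCNGGAA. Longer windows and flanks hold more sequence by construction. The other causes were not tested.

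No paired analysis was possible because no value per library exists in merged positions. The absence of a peak, as at *Jak1*, says only that none was called, and at unknown depth it does not show that the mark is absent.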
